A study of Mus musculus with 768 samples.

Results

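The genes described here are the replication-dependent histone genes, 62 of the 27723 genes of the table, chosen by name alone: every gene whose symbol begins with HIST1H, HIST2H, HIST3H or HIST4H. They comprise 6 genes of the linker histone H1, 15 of H2A, 18 of H2B, 11 of H3 and 12 of H4. The rule uses names and no measured value, although these genes were picked for description with earlier results of these data known. The cells were mouse embryonic stem cells of the strain labelled Ainv15(iNgn2.Isl1.Lhx3.V5), grown as embryoid bodies for 2 days, in which doxycycline at 3 µg/ml induces a cassette encoding Ngn2, Isl1 and Lhx3, transcription factors, with a V5 tag. Every group carries the same cassette, and the labels set the groups apart by the time since doxycycline: 0 h (none yet), 6, 12, 18, 24, 30, 36 and 48 h. Viable cells, marked with fluorescein diacetate, were sorted singly, 96 at each time point, and their RNA was read by SMART-Seq2, a full-length method that starts complementary DNA from poly(A) tails. Cells of 1 time point are not assigned to separate cultures in the labels. A time point is therefore 1 sample: differences between time points are given by their size, without a significance test, and every spread below is between cells.

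Replication-dependent histone genes supply the histones that package newly copied DNA, and their messenger RNAs accumulate in S phase and are degraded when DNA synthesis ends. Unlike other messenger RNAs they end, after processing, in a short conserved stem-loop in place of a poly(A) tail. The stem-loop binding protein SLBP holds it, NPAT and CASP8AP2 (FLASH) act in the transcription and processing of these genes, and some members are also known to give polyadenylated transcripts. Variant histones such as H3.3, made by H3F3A and H3F3B, are polyadenylated and made outside S phase as well.

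Cells with at least 2000 genes above 0 were used, 368 of 768. Their number and depth differed. In the 0, 12, 36 and 48 h cells, 37, 52, 44 and 14 were kept, with a median of 5304, 4269, 2894 and 2141 genes. In the 6, 18, 24 and 30 h cells, 53, 56, 55 and 57 were kept, with 7484, 7348, 6676 and 6481. The mean level of SOD1 was between 19553 and 65262 TPM (transcripts per 1000000, a share of the cell's transcripts that allows for their length) in the first 4 time points and between 518 and 807 TPM in the other 4. The time points were therefore compared only within these 2 sets, called set 1 (0, 12, 36 and 48 h) and set 2 (6, 18, 24 and 30 h). In the figures they are called library sets. The labels state that libraries were made in 2 batches, and whether these are the sets was not given in the sources used here. As a check of the labels, the 5 pluripotency markers (POU5F1, UTF1, DPPA5A, SALL4, TDGF1) had a median summed level of 5907 TPM at 0 h and 389 TPM at 36 h, while the sum of the 4 motor neuron markers (MNX1, SLC18A3, ISL2, CHAT) had a median of 0 TPM at each time point of set 1.

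The stem-loop is shown first because it is the feature that defines these messenger RNAs. It was found in the GENCODE M21 transcript models of 39 of the 62 genes, in 6 forms, given here 5′ to 3′ with the loop in capitals and the 2 stem arms in lower case.
H1, H2A, H2B and H3, 22 genes: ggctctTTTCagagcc
H4 only, 6 genes: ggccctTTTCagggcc
H1, H2B and H3, 6 genes: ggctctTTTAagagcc
H4 only, 2 genes: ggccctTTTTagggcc
H4 only, 2 further genes: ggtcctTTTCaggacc
H2A gene HIST2H2AC, 1 gene: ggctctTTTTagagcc
The 10 H4 models with a stem-loop used 3 forms that no gene of another class had, whereas the commonest form was spread over the other 4 classes. In 18 models the transcript ended within 100 bases after the stem-loop, the farthest at 74 bases, and in 21 it went on, the nearest by 151 bases. The other 23 models held no stem-loop, and 13 of these ran from start codon to stop codon and held nothing more.

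Histone transcripts were abundant in the cells before doxycycline and scarce in the late cells of set 1. The summed level of the 62 genes per cell ran from 20.8 to 21997 TPM at 0 h with a median of 4951 TPM, from 0 to 16972 TPM at 12 h with a median of 1283 TPM, from 0 to 6626 TPM at 36 h with a median of 12.1 TPM, and from 0 to 981 TPM at 48 h with a median of 0 TPM. The ranges overlapped, and the share of cells with a high sum was lower at each later time point. The sum was at least 1000 TPM in 29 of 37 cells at 0 h (78.4%, exact 95% interval 61.8 to 90.2%) and in 29 of 52 at 12 h (55.8%, 41.3 to 69.5%). It was at least 1000 TPM in 6 of 44 at 36 h (13.6%, 5.17 to 27.4%) and in 0 of 14 at 48 h, a count that allows up to 21.4%. The intervals here cover counting error only. The sum was listed at 0 in 0, 1, 16 and 9 cells of the 4 time points. Means were 6774 ± 6146 TPM at 0 h (SD over cells, n = 37), 3824 ± 4771 TPM at 12 h (n = 52), 474 ± 1401 TPM at 36 h (n = 44) and 143 ± 291 TPM at 48 h (n = 14). On the log2(mean TPM + 1) scale the difference of the sum from 0 h was −0.82, −3.84 and −5.55 at 12, 36 and 48 h. Depth was also lower at 36 and 48 h, and its part was not tested. Among the kept cells with fewer than 4000 genes the median sum was 3976 TPM in 6 cells at 0 h, 708 TPM in 19 cells at 12 h, 12.1 TPM in 44 cells at 36 h and 0 TPM in 14 cells at 48 h. Their depth was not equal either, with medians of 3911.5, 3350, 2894 and 2141 genes. The 36 h cells split into 6 cells at 1000 TPM or more and 38 below it, with a sum of 0 in 16 of the latter.

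**Figure D1:**
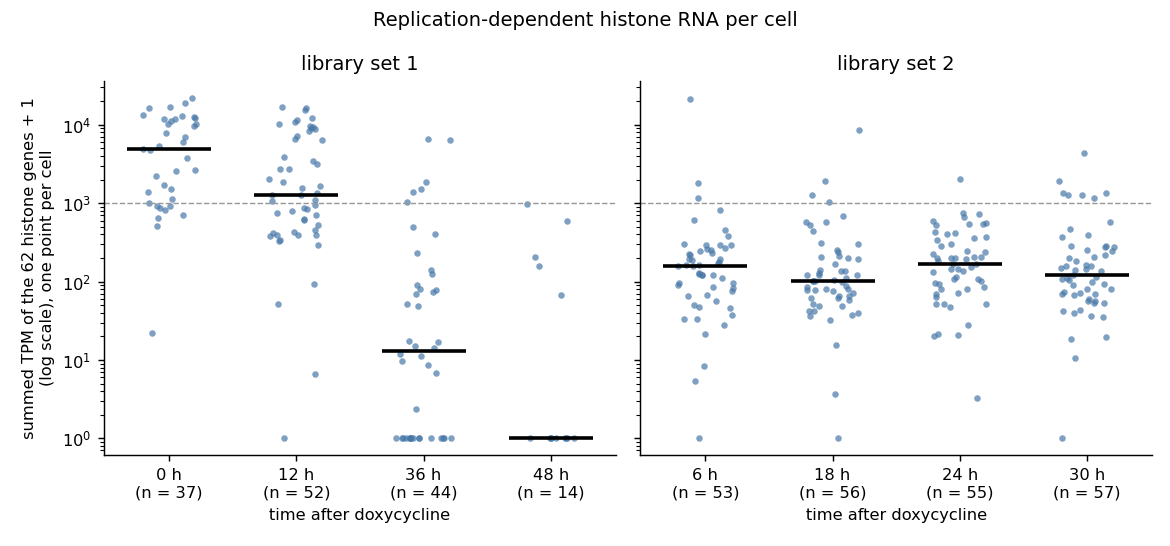
Summed TPM of the 62 histone genes in each kept cell, plus 1, on a log axis, by hours after doxycycline, for library set 1 (left) and set 2 (right). Bars are medians and the dashed line marks 1000 TPM. Medians in set 1 are 4951, 1283, 12.1 and 0 TPM, and in set 2 they lie between 101 and 168 TPM with 1 to 7 cells of each time point above the line.

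The cells of set 2 showed low sums with little difference between the medians. The sum ran from 0 to 21619 TPM at 6 h with a median of 158 TPM, from 0 to 8643 TPM at 18 h with a median of 101 TPM, from 2.23 to 2051 TPM at 24 h with a median of 168 TPM, and from 0 to 4382 TPM at 30 h with a median of 119 TPM. At least 1000 TPM was reached in 3 of 53, 4 of 56, 1 of 55 and 7 of 57 cells. Means were 624 ± 2955, 367 ± 1175, 260.3 ± 313 and 348 ± 682 TPM (SD over cells, n = 53, 56, 55 and 57). The 6 h mean rested on 1 cell, which held 65.4% of all histone TPM of that time point, and the highest cell at 18 h held 42.0%. Without the highest cell of each time point the means were 219.8, 217, 227 and 276 TPM. The 6 h cell had 4347 genes above 0 and held HIST1H2AH at 13108 TPM and HIST1H2AP at 5152 TPM, with SOD1 at 209 TPM, a level of set 2. The highest 18 h cell had 2109 genes, HIST1H2AH at 4154 TPM and HIST1H2AP at 3192 TPM. In set 2 the cells at 1000 TPM or more had fewer genes than the rest, with medians of 4347, 4056, 4479 and 4236 genes at 6, 18, 24 and 30 h against 7497, 7540, 6714 and 6602. In set 1 the order was the other way, with 5389 against 4806 genes at 0 h and 3184 against 2826 at 36 h. The part of depth in these high cells was not tested.

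A pair of H2A genes, HIST1H2AH and HIST1H2AP, carried most of the histone signal in set 1. Histone H2A is the core histone that pairs with H2B in the nucleosome. Together they held 92.9%, 90.8%, 74.1% and 23.8% of histone TPM at 0, 12, 36 and 48 h, and 66.5%, 56.8%, 36.8% and 37.5% at 6, 18, 24 and 30 h. The other 60 genes together had means of 482, 352, 123 and 109 TPM at 0, 12, 36 and 48 h, and of 209, 159, 164 and 218 TPM at 6, 18, 24 and 30 h.

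**Figure D2:**
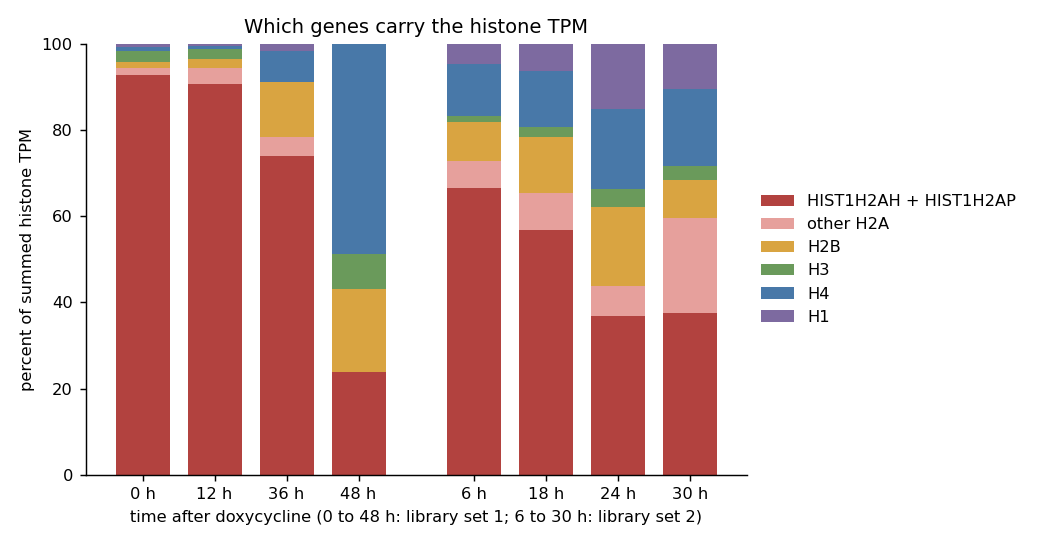
Stacked bars give the percent of summed histone TPM held by HIST1H2AH with HIST1H2AP, by the other 13 H2A genes, and by the H2B, H3, H4 and H1 genes, at each time point. The pair holds 92.9% at 0 h and 36.8% at 24 h, and the H4 share of 48.9% at 48 h comes from 1 cell.

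HIST1H2AH, at chr13:22035164-22035568 on the minus strand of GRCm38 (mm10), had values from 0 to 14376 TPM at 0 h with a median of 2703 TPM, from 0 to 10392 TPM at 12 h with a median of 617 TPM, from 0 to 4247 TPM at 36 h and from 0 to 411 TPM at 48 h with medians of 0 TPM. It was above 0 in 35 of 37, 43 of 52, 11 of 44 and 1 of 14 cells. Its means were 4140.1 ± 4005, 2196 ± 2892, 221 ± 801 and 29.4 ± 109.9 TPM (SD over cells, n = 37, 52, 44 and 14), and its log2 difference from 0 h was −0.91, −4.22 and −7.09. In set 2 it was above 0 in 14 of 53, 23 of 56, 19 of 55 and 13 of 57 cells, its medians were 0 TPM, and its highest values were 13108, 4154, 923 and 1636 TPM at 6, 18, 24 and 30 h.

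HIST1H2AP, at chr13:21833026-21833507 on the minus strand, was above 0 in every one of the 37 cells at 0 h. Its values there ran from 18.1 to 6998 TPM with a median of 1565 TPM, at 12 h from 0 to 5338 TPM with a median of 506 TPM, at 36 h from 0 to 2484 TPM and at 48 h from 0 to 66.4 TPM with medians of 0 TPM. At 12, 36 and 48 h it was above 0 in 45 of 52, 6 of 44 and 1 of 14 cells. The means were 2152 ± 2084, 1277 ± 1609, 130.3 ± 498 and 4.74 ± 17.8 TPM (SD over cells, n = 37, 52, 44 and 14), with log2 differences from 0 h of −0.75, −4.04 and −8.55. In set 2 it was above 0 in 26 of 53, 24 of 56, 28 of 55 and 22 of 57 cells, with highest values of 5152, 3192, 524 and 1071 TPM.

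The levels of these 2 genes followed each other from cell to cell at 0 and 12 h, less so at 36 h and far less in set 2. Spearman's rank correlation between them was 0.99 over 37 cells at 0 h, 0.93 over 52 at 12 h and 0.64 over 44 at 36 h, against 0.21, 0.29, 0.19 and 0.23 at 6, 18, 24 and 30 h. At 36 h 5 of the 44 cells had both above 0 and 32 had neither. At 48 h 0 of 14 cells had both, and the rank correlation was −0.08. In the cells with both above 0 the log2 ratio of HIST1H2AH to HIST1H2AP was 0.95 ± 0.47 at 0 h (SD over cells, n = 35) and 0.72 ± 0.87 at 12 h (n = 42), and HIST1H2AH was the higher in 34 of 35 and 34 of 42 of those cells. The genes of such a pair share sequence, which limits how reads can be divided between them. Of the 356 windows of 50 bases in the HIST1H2AH model, the read length used, 73.3% also occurred in the HIST1H2AP model, and 90.7% occurred in at least 1 other gene. One such window, bases 194 to 243 of the HIST1H2AH model, is shown because it occurred without a mismatch in 13 of the 15 H2A genes.
HIST1H2AH, bases 194 to 243: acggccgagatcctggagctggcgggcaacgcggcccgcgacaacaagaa
The labels of the values end in rsem, the name of a program that estimates transcript levels. They state neither its settings nor its handling of reads shared by such genes. The level of any 1 H2A gene is therefore less certain than the H2A sum. That sum ran from 18.1 to 21399 TPM at 0 h and its means were 6404, 3608, 371 and 34.1 TPM at 0, 12, 36 and 48 h. Over all members 58 of 62 shared at least 1 window with another gene. The median share of windows was 58.0% for H2A, 46.8% for H2B, 60.4% for H3, 34.2% for H4 and 1.13% for H1.

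**Figure D3:**
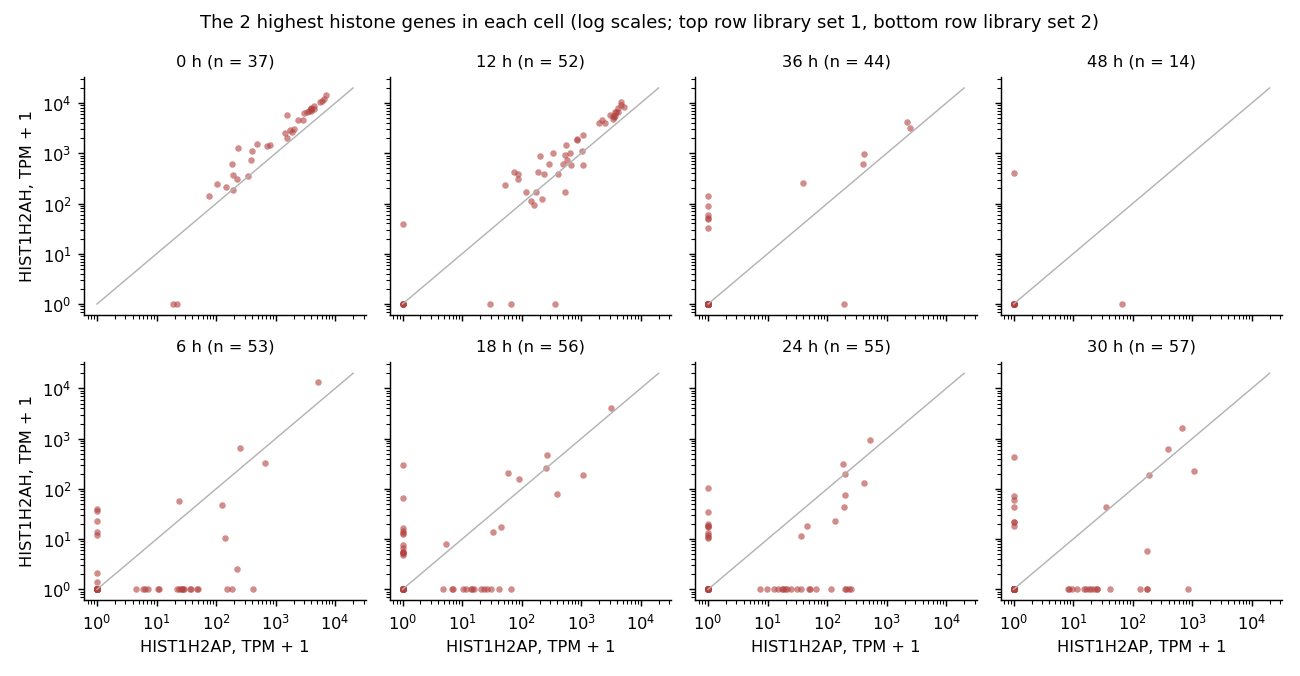
Each point is 1 cell, with HIST1H2AP TPM plus 1 on the horizontal and HIST1H2AH TPM plus 1 on the vertical log axis, in a panel for each time point; the line marks equal levels. At 0 and 12 h the cells lie along a band above the line (rank correlation 0.99 and 0.93), and in the lower row most cells with 1 of the genes lack the other (rank correlation 0.19 to 0.29).

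HIST1H2AH and HIST1H2AP each lie head to head with an H2B gene, HIST1H2BK and HIST1H2BR, with 302 and 236 bases between the annotated starts. The bases before the RefSeq start of each of the pair are shown because their levels so far exceeded those of the neighbours that share this stretch. They are given 5′ to 3′ on the minus strand, from the RefSeq promoter table of build GRCm38.p6, with CCAAT and ATTTGCAT (the octamer) in capitals, also where they stand as their reverse complements ATTGG and ATGCAAAT.
HIST1H2AH, chr13:22035644-22035893, minus strand: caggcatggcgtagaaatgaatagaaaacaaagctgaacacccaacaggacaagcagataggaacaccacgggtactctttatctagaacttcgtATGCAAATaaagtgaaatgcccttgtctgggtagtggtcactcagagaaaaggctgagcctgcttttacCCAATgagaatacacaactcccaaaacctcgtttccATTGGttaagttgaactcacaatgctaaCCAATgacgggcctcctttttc
HIST1H2AP, chr13:21833476-21833725, minus strand: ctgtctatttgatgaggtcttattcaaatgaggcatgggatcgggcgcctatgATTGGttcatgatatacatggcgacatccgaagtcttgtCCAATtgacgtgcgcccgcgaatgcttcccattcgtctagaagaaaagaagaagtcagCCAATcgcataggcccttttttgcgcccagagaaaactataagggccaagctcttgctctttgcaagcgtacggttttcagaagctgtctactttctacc
At 0 h the mean of HIST1H2AH was 4140.1 TPM and that of HIST1H2BK 14.4 TPM, and the means of HIST1H2AP and HIST1H2BR were 2152 and 7.92 TPM. In both pairs the H2A gene was the higher at each of the 8 time points. Among 11 such H2A and H2B pairs, with 173 to 306 bases between starts, the H2A gene was the higher at 0 h in 8 and the H2B gene in 3. In some of the 8 the H2A gene was above 0 in only 2.70% of the 0 h cells. Its mean there was as low as 0.304 TPM against 0 TPM, so few cells decided the order. The widest difference in favour of H2B was in HIST1H2AC and HIST1H2BC, at 4.45 and 55.8 TPM. A match of letters is a description and marks no binding site. Of the 56 members matched to a RefSeq promoter (250 bases before and 50 after the start), through synonyms, 32 held TATAAA (57.1%), against 13.6% of all 32851 promoters. CCAAT was present in 48 (85.7%), against 37.4%, in every matched gene of H1, H2A, H2B and H3 but in 3 of 11 of H4. ATTTGCAT was present in 13 (23.2%), against 1.74%, and these were 7 of 15 H2A and 6 of 15 H2B genes.

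The remaining core histone genes were low in every set. Of the 62 genes, all were above 0 in at least 1 kept cell, 7 were above 0 at each time point, and 13 were above 0 in at least 25% of the cells of some time point. The median cell held 6, 3, 1 and 0 histone genes above 0 at 0, 12, 36 and 48 h, and 7, 7, 8 and 5 at 6, 18, 24 and 30 h. The number of histone genes at 0 in all kept cells was 23, 13, 38 and 52 in set 1 and 5, 4, 4 and 7 in set 2. The cells of set 2 also had more genes of any kind above 0, and the part of that depth in these counts was not tested.

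Among H2B genes, HIST1H2BC was the highest by the mean over the 8 time points, though not at each of them. It was above 0 in 17 of 37, 7 of 52, 1 of 44 and 0 of 14 cells of set 1, with highest values of 454, 1007, 204 and 0 TPM. Its means were 55.8 ± 99.9, 52.4 ± 169.8 and 4.64 ± 30.8 TPM at 0, 12 and 36 h (SD over cells, n = 37, 52 and 44). The near-equal means at 0 and 12 h thus came from 17 and 7 cells. In set 2 the means were 23.8 ± 42.6, 13.9 ± 41.7, 9.13 ± 21.8 and 5.74 ± 20.7 TPM, with 19 of 53, 13 of 56, 14 of 55 and 7 of 57 cells above 0 at 6, 18, 24 and 30 h. HIST1H2BK had a mean of 14.4 TPM at 0 h that came from 1 cell of 534 TPM, and means from 3.36 to 5.03 TPM in set 2. The H2B sum averaged 92.4, 80.1, 60.1 and 27.8 TPM at 0, 12, 36 and 48 h, and without the highest cell of each time point 80.1, 59.9, 22.5 and 14.1 TPM. A single cell held 63.5% of the H2B sum at 36 h and 52.8% at 48 h.

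The H3 genes, whose product forms the nucleosome core with H4, were likewise lower in the late cells of set 1. HIST1H3F was above 0 in 12 of 37, 12 of 52, 1 of 44 and 0 of 14 cells of set 1, with highest values of 911, 429, 33.2 and 0 TPM and means of 66.4 ± 172, 46.7 ± 107 and 0.754 ± 5.00 TPM at 0, 12 and 36 h (SD over cells, n = 37, 52 and 44). HIST1H3B was above 0 in 11 of 37 and 9 of 52 cells at 0 and 12 h, with means of 47.6 ± 106 and 29.99 ± 89.4 TPM, and was listed at 0 in every cell at 36 and 48 h. In set 2 both were low, with means from 0.416 to 3.73 TPM for HIST1H3F and from 0.309 to 2.55 TPM for HIST1H3B. The H3 sum averaged 167, 87.8, 0.754 and 11.4 TPM in set 1, and the 48 h value came from 1 of 14 cells.

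Among H4 genes, which form the nucleosome core with H3, and H1 genes, the linker histones, the members described differed. HIST1H4D was above 0 in 4 of 37 cells at 0 h and 4 of 52 at 12 h and was listed at 0 at 36 and 48 h, but in set 2 it was above 0 in 28 of 53, 25 of 56, 20 of 55 and 22 of 57 cells. Its set 2 means were 54.4 ± 219, 16.4 ± 30.2, 16.7 ± 30.2 and 37.6 ± 83.2 TPM (SD over cells, n = 53, 56, 55 and 57), and the 6 h mean included 1 cell of 1577 TPM. HIST1H4I was above 0 in 10 of 53 cells at 6 h and in 18 of 56, 20 of 55 and 16 of 57 at 18, 24 and 30 h, with means of 4.04 ± 10.6, 16.4 ± 37.2, 14.4 ± 27.0 and 11.97 ± 26.0 TPM. Its highest values at those times were 51.4, 167, 145 and 109.7 TPM, so the cells overlapped. At 48 h the H4 mean of 70.1 TPM was a single cell with HIST4H4 at 981 TPM. HIST1H1C, a linker histone gene, was above 0 in 16 of 37, 9 of 52, 8 of 44 and 0 of 14 cells of set 1, with means of 41.6 ± 79.9, 10.5 ± 40.5 and 7.52 ± 21.8 TPM at 0, 12 and 36 h. HIST1H1B was listed at 0 in every cell at 0, 36 and 48 h and in 1 of 52 cells at 12 h exceeded 0, whereas in set 2 it was above 0 in 15 of 53, 18 of 56, 24 of 55 and 17 of 57 cells with means from 9.65 to 15.4 TPM. The 2 sets differ in time and depth and may differ in library batch, so the source of their difference in HIST1H1B cannot be told apart.

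**Figure D4:**
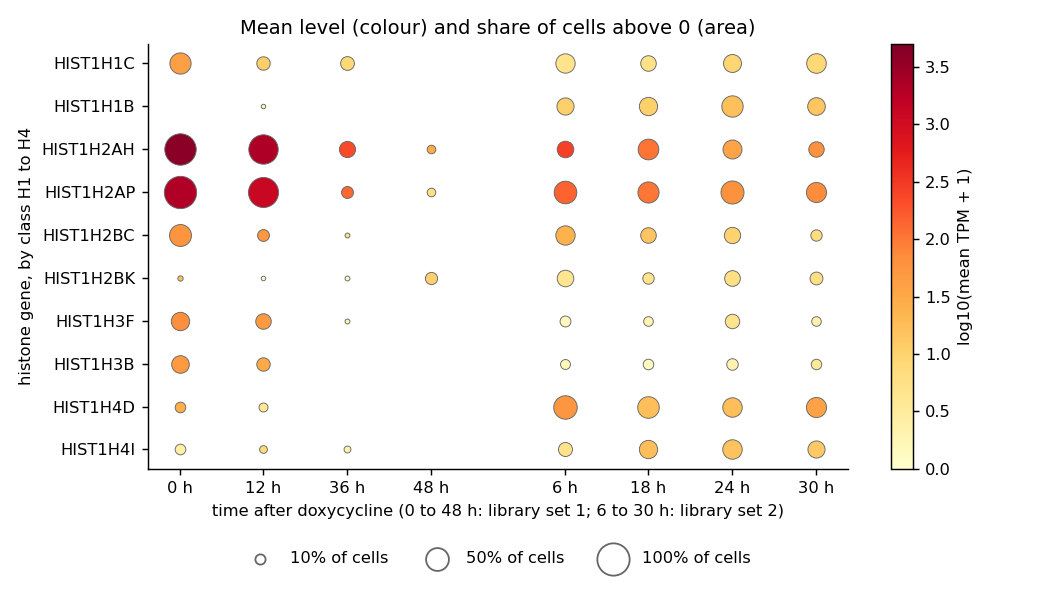
For the 2 highest genes of each class, the area of a circle gives the percent of kept cells above 0 and its colour log10(mean TPM + 1), by hours after doxycycline in both library sets. HIST1H2AP reaches 100% of cells at 0 h, HIST1H1B is empty at 0 h and above 0 in 43.6% of cells at 24 h, and HIST1H3B is empty at 36 and 48 h.

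The 3′ ends of the models divided the signal differently in the 2 sets. The 21 genes whose models go on past the stem-loop held 2.93%, 2.40% and 3.24% of histone TPM at 0, 12 and 36 h, and 18.2%, 21.0%, 31.7% and 28.7% at 6, 18, 24 and 30 h. At 48 h they held 48.9%, the single HIST4H4 cell. Without HIST1H2AH and HIST1H2AP the same 21 genes held 41.2%, 26.1% and 12.5% of what was left at 0, 12 and 36 h and between 45.9% and 54.4% in set 2. The HIST1H2AP model ends 3 bases after its stem-loop. The HIST1H2AH model, 405 bases long, holds no stem-loop. SMART-Seq2 starts from poly(A) tails, and the part of tails in these shares was not tested.

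Gene by gene, few histone genes passed the filter on low values. The filter asked for a mean of at least 10 TPM at the higher time point and more than 0 TPM in at least 25% of its cells. Any gene could pass through either time point, but the histone genes that passed in set 1 all passed through 0 h. A gene that passes through 0 h has, by that rule, a lower mean at the later time point. The shares and medians over all genes include those that passed through the later time point. They are therefore not a like background for the histone genes. At 36 h, 35 histone genes had a lower mean than at 0 h and 9 a higher one, and those 9 did not pass. Over all 27723 genes, with no filter, 8066 had a lower mean and 8698 a higher one. At 12 h against 0 h, 6 of 62 passed, 1 was at least 2-fold lower (HIST1H1C, −1.89 on the log2 scale) and 0 were at least 2-fold higher. Over all 5848 genes that passed, 13% were at least 2-fold lower and 17% higher, and the medians were −0.70 for the 6 histone genes and 0.04 for all genes. At 36 h against 0 h the same 6 genes passed (HIST1H1C, HIST1H2AH, HIST1H2AP, HIST1H2BC, HIST1H3B and HIST1H3F) and all 6 were at least 2-fold lower, against 28.5% lower and 22.5% higher of all genes, with medians of −4.13 and −0.18. At 48 h against 0 h all 6 were again lower, against 43.4% lower and 22.8% higher of all genes, with medians of −5.95 and −0.62. Since 4 of the 6 were listed at 0 at 48 h, that median depends on the 1 TPM added before the logarithm.

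In set 2 the gene-wise differences went both ways. At 18 h against 6 h, 6 histone genes passed, of which HIST1H4D and HIST1H2AH were at least 2-fold lower (−1.67 and −1.32) and HIST1H4I was at least 2-fold higher (1.79), against 7.36% lower and 11.8% higher of all genes. At 24 h against 6 h, 7 passed, 4 were lower (HIST1H2AH, HIST1H4D, HIST1H2BC and HIST1H2AP) and HIST1H4I was higher (1.61), against 6.28% lower and 13.5% higher. At 30 h against 6 h, 7 passed, 3 were lower (HIST1H2AH, HIST1H2BC and HIST1H2AP) and HIST1H4I was higher (1.36), against 6.03% lower and 13.9% higher. Medians were −0.63, −1.26 and −0.52 for the histone genes that passed and 0.07, 0.24 and 0.20 for all genes. Several of the lower calls rested on the highest cells. Leaving out, for each gene and time point, the highest cell, the differences of HIST1H2AH from 6 h were 0.54, −0.23 and 0.43 at 18, 24 and 30 h, and those of HIST1H2AP were 0.08 and 0.14 at 24 and 30 h. Those of HIST1H4D were then −0.76 and −0.72 at 18 and 24 h. None of these 7 calls remained, whereas HIST1H2BC stayed at −1.36 and −2.21 at 24 and 30 h and HIST1H4I at 1.83, 1.65 and 1.44 at 18, 24 and 30 h. The comparisons of a set share their 0 h or 6 h cells.

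The genes that act on histone RNA had other values than the histone genes in set 1. SLBP had means of 49.4 ± 84.8, 81.6 ± 133, 110.3 ± 287 and 32.2 ± 42.7 TPM at 0, 12, 36 and 48 h (SD over cells, n = 37, 52, 44 and 14), and its median was 22.3, 27.0, 23.8 and 0 TPM. CASP8AP2 had means of 126, 112, 157 and 145 TPM at these times, while the share of cells above 0 went from 78.4% at 0 h to 35.7% at 48 h. Of 7 processing and transcription genes, 3 passed at 36 h against 0 h, 0 were at least 2-fold lower and 1 was higher (SLBP, 1.14). Of 7 histone chaperones 5 passed and 3 were lower, among them HIRA at −2.75, and NASP, which carries H1 and H3 with H4, was at −0.64. The 11 replication-independent histone genes divided at 36 h: 9 passed, 4 were lower, among them H2AFX (−3.14) and H2AFZ (−1.33), and 5 were higher, among them H2AFY (2.35), H3F3B (1.93), H3F3A (1.25) and H1F0 (1.01). The H3.3 gene H3F3A had a median of 259.8, 521, 604 and 468 TPM at 0, 12, 36 and 48 h, while HIST1H3F and HIST1H3B both had medians of 0 TPM. The counts of all these lists at 36 h, and that of the 6 histone genes, are to be read against the shares of all genes given above. Those were 28.5% lower and 22.5% higher, and each list rests on few genes.

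Genes of DNA replication were called lower at 36 h about as often as all genes. Of 27 S phase genes 24 passed at 36 h against 0 h, 7 were at least 2-fold lower and 1 higher, against 28.5% and 22.5% of all genes, with a median of −0.58 and with CDT1, a licensing factor, lowest at −4.85. At 48 h 22 passed, 13 were lower and 4 higher, against 43.4% and 22.8% of all genes, with a median of −1.68 and one of −0.62 over all genes. PCNA, the sliding clamp of DNA polymerase, had another course than the histone sum: its means were 231, 147, 224 and 501 TPM at 0, 12, 36 and 48 h, with medians of 177, 14.3, 11.97 and 40.8 TPM and 37 of 37, 35 of 52, 24 of 44 and 8 of 14 cells above 0. In set 2 PCNA was above 0 in 52 of 53, 54 of 56, 55 of 55 and 55 of 57 cells, with medians between 342 and 645 TPM.

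Within a time point, the histone sum went with PCNA from cell to cell most clearly at 12 h. There the rank correlation was 0.52 over 52 cells, and 0.50 given the number of genes. The sum ran from 339 to 16972 TPM with a median of 3173 TPM in the 35 cells with PCNA, and from 0 to 2044 TPM with a median of 529 TPM in the 17 cells without it, so that 25 of 35 and 4 of 17 cells had at least 1000 TPM. The cells with PCNA had a median of 4372 genes and the others 3905. At 0 h every cell had PCNA and the rank correlation was 0.09 over 37 cells. At 36 and 48 h it was 0.06 and 0.45 over 44 and 14 cells, and at 6, 18, 24 and 30 h it was −0.20, −0.07, 0.31 and 0.14 over 53, 56, 55 and 57 cells. These are descriptions over cells that share a time point and differ in depth.

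At 0, 12 and 36 h the other S phase genes went more with HIST1H2AH and HIST1H2AP than with the remaining 60 histone genes. With the mean log2(TPM + 1) of the other 26 S phase genes, the rank correlation of the histone sum was 0.51, 0.57, 0.35 and 0.46 at 0, 12, 36 and 48 h, and −0.09, 0.06, 0.45 and 0.09 at 6, 18, 24 and 30 h. For the sum of HIST1H2AH and HIST1H2AP alone it was 0.49, 0.58 and 0.59 at 0, 12 and 36 h. For the other 60 genes it was −0.10, 0.30 and 0.14. At 24 h it was the 60 genes that went more with the S phase score, at 0.42 against 0.27. Counting histone genes above 0 in place of summing TPM gave 0.60 at 24 h and 0.51 at 12 h, and that count went with the number of all genes above 0 as well (rank correlation 0.37 and 0.52). Among the class sums, H2A went with H3 at a rank correlation of 0.35 and 0.48 at 0 and 12 h and at 0.29, 0.27, 0.53 and 0.61 at 6, 18, 24 and 30 h, but at −0.12 over 44 cells at 36 h and 0.73 over 14 cells at 48 h, where 1 cell each had any H3.

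STMN2, a neuronal gene that acts on microtubules, was set against the histone sum in the same cells. At 36 h the histone sum ran from 0 to 404 TPM with a median of 1.36 TPM in the 23 cells with STMN2, and from 0 to 6626 TPM with a median of 68.5 TPM in the 21 cells without it. A sum of 1000 TPM or more was found in 0 of 23 and 6 of 21 cells, and 0 of 23 allows a share of up to 13.0%. The rank correlation was −0.44 over 44 cells, and −0.39 given the number of genes, the medians of which were 2701 and 3139 in the cells with and without STMN2. Over all 96 cells sorted at 36 h, with no minimum of genes, the rank correlation was −0.067. At 48 h the 7 cells with STMN2 had sums from 0 to 156 TPM and the 7 without from 0 to 981 TPM, with a rank correlation of −0.22. In set 2 no such division was seen: the rank correlation was −0.14, −0.04, −0.10 and −0.08 at 6, 18, 24 and 30 h, and at 30 h all 7 cells with a sum of at least 1000 TPM had STMN2 above 0. The 5 cells with STMN2 at 12 h and the 10 at 0 h had median sums of 1543 and 4293 TPM, and the cells without it 1282 and 5304 TPM.

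**Figure D5:**
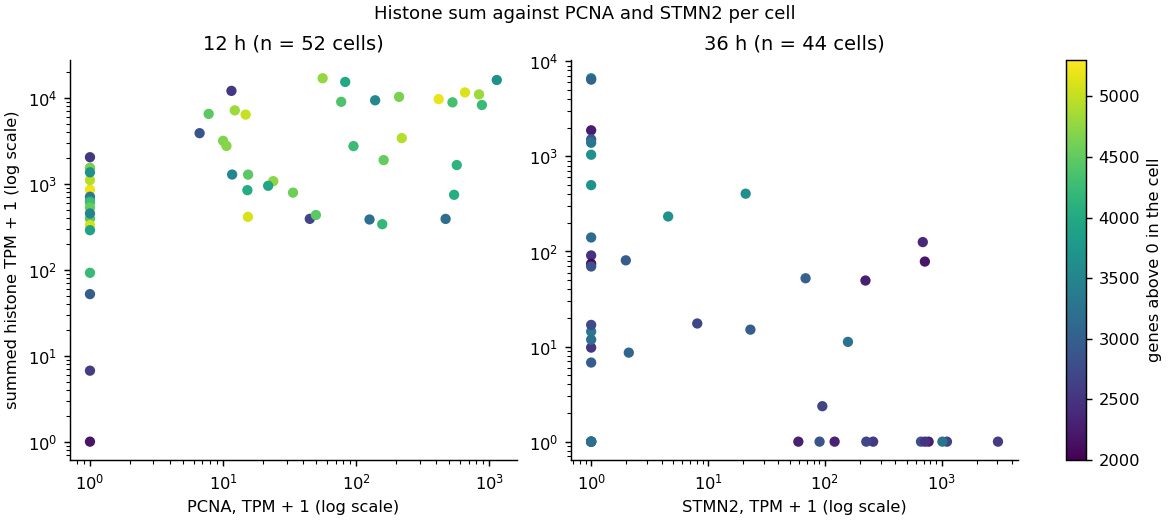
Each point is 1 cell: the histone sum plus 1 against PCNA plus 1 at 12 h (left) and against STMN2 plus 1 at 36 h (right), in TPM on log axes, coloured by the number of genes above 0. At 12 h the cells without PCNA reach 2044 TPM and those with it 16972 TPM. At 36 h the 6 cells of 1000 TPM or more have no STMN2.

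The number given to a cell in the labels also went with the histone sum at some time points. The rank correlation with the cell number was 0.38, 0.50, 0.40 and 0.29 at 36, 48, 24 and 30 h, and between −0.04 and 0.22 at 0, 12, 6 and 18 h. The 6 high cells at 36 h had a median cell number of 87 and the other 38 a median of 62. Whether the number stands for a place on a plate was not given in the sources used here, and its part in the values was not tested.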

How the data were processed

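Single-cell RNA of 96 cells at each of 8 time points was analysed. The authors deposited TPM (abundances that allow for transcript length, scaled to 1000000 per cell) in 1 table. TPM keeps no depth, so the number of genes above 0 stood for it. Reads were single-end, 50 bases, at a stated average of 325000 per cell, per the labels. Bcl2fastq, Picard and mm10 stand in the submitters' processing notes. Aligner and annotation were not given in the sources used here. Columns of other samples numbered 0.

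Cells with at least 2000 genes were kept. Fold changes are log2 of ratios of mean TPM + 1, which makes changes of low genes look smaller. Genes passed with a mean of at least 10 TPM and detection in at least 25% of cells at the higher time point, and were called at 2-fold. With 1 sample a time point, no p-value was computed. Members and lists were chosen with earlier results of these data known. Named genes were the 2 highest members of each class above 0 in at least 25% of cells at any time point, 11 reference genes, and the highest and lowest of a comparison or list. HIST1H2BR, HIST4H4, HIST1H2AC and HIST2H2AC were named after their values were seen. HIST1H2AD, HIST1H2AO and HIST1H2BQ were named for the windows they share with members. Stem-loops and 50-base windows were searched in GENCODE M21 transcripts, 1 per gene, and motifs in RefSeq promoters on both strands. Shares have exact binomial intervals of 95%, and for 0 cells the limit given is 3 cells over the number examined. The fold changes and correlations were tested on simulated data. Alternative settings were compared, of which kept cells with fewer than 4000 genes were chosen after seeing the data. Python 3.11.15, numpy 2.4.6, pandas 2.3.3 and scipy 1.17.1 were used.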

Additional observations from a re-analysis of the deposited data

How the results depend on the processing

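No paired analysis was possible because the replicate numbers are cell numbers that pair nothing. Settings were compared for 6 log2 ratios of the histone sum, 6 counts of members at least 2-fold lower, 16 correlations and single genes; a ratio counted as moved past 1.5-fold, a correlation past its sampling interval. In set 1 each ratio stayed negative. With medians over cells they were −1.95, −8.56 and −12.3 at 12, 36 and 48 h, with all cells −1.82 and −3.74 at 36 and 48 h, in odd-numbered cells −5.77 and −4.87, in even-numbered cells −3.21 and −7.91, and in kept cells of fewer than 4000 genes, chosen after seeing the data, −3.14 and −4.86. The 48 h ratio was −4.52 without HIST1H2AH, −6.31 without the highest cell and −4.93 centred on all genes. In set 2 directions depended on single cells. At 24 h against 6 h the ratio turned to 0.683 with all cells, 0.116 in even-numbered cells, 0.0868 with medians and 0.0468 without the highest cell, and was −1.91 in odd-numbered cells and −0.654 without HIST1H2AH. At 18 h it was −1.73 with at least 4000 genes, 0.000315 in even-numbered cells and −0.0202 without the highest cell. At 30 h it was −1.42 with at least 4000 genes and 0.329 without the highest cell. HIST1H2AH turned to 0.0292 at 18 h and 0.266 at 24 h in even-numbered cells, to 0.687 at 24 h with all cells, and to 0.537 at 18 h and 0.429 at 30 h without its highest cells. HIST1H2AP turned at 24 h to 0.334 in even-numbered cells, 0.785 with all cells and 0.0821 without its highest cells, and at 30 h to 0.141 without its highest cells. Members at least 2-fold lower numbered 16, 27, 26, 9, 10 and 8 at 12, 36, 48, 18, 24 and 30 h with no filter, and 0, 1, 2, 1, 1 and 1 with all cells, where 2, 2, 2, 3, 4 and 3 passed. With at least 4000 genes they were 0 at 12 h and 4 at 18 h, in odd-numbered cells 5 at 12 h and 4 at 18 h, in even-numbered cells 1 at 24 h and 0 at 30 h, and without the highest cells 1 at 18, 24 and 30 h. The share over all genes was not computed at these settings. Such counts therefore show how the settings act and no difference from other genes. With all cells, the rank correlation with PCNA was 0.401, 0.336 and 0.497 at 0, 6 and 30 h, and with STMN2 −0.067, 0.219, 0.37 and 0.507 at 36, 6, 18 and 30 h. In odd-numbered and even-numbered cells the rank correlation with PCNA was −0.435 and 0.283 at 18 h and −0.348 and 0.729 at 30 h, and with STMN2 −0.425 and 0.219 at 6 h. The cause of these differences was not tested. A ratio counted as reversed when a main value of at least 2-fold changed sign. Of the alternative sum ratios 48 stayed, 21 moved and 4 reversed. Of the counts 43 stayed and 21 moved, and of the single-gene ratios 248 stayed, 58 moved and 9 reversed. Of 158 alternative correlations, 145 stayed within their interval, which is wide where cells are few, so that a correlation near 0 could change sign within it.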
